A study of Rattus norvegicus with 12 samples.

Results

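The choroid plexus genes described here are Ttr, Kl, Folr1, Clic6, Aqp1, Kcne2 and Otx2, 7 of the 17337 rows of a count table of rat brain RNA. They were chosen by name as genes that mark the epithelium of the choroid plexus, and all 7 are in the table. Of them, 6 passed the filter on low counts, which kept 12850 genes in all, and Otx2 did not.

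RNA sequencing had been carried out on brain, described in the series design as middle brain, of male Sprague-Dawley rats at postnatal day 60, in 4 groups of 3 libraries. AAV-VEGFC rats had bile duct ligation (BDL) for 4 weeks and were injected with AAV, an adeno-associated viral vector, carrying the lymphatic growth factor gene VEGFC. AAV-GFP rats had the same ligation and were injected with an AAV that carries the gene of green fluorescent protein. BDL rats had the ligation for 4 weeks and no vector, and sham rats had neither. Ligation of the bile duct blocks bile outflow and leads to liver cirrhosis. Both vectors went into the cisterna magna, a space filled with cerebrospinal fluid behind the cerebellum, in 20 µl at 1.5e+11 genome copies per rat, where the label prints the exponent without superscript and the value is a reading of it. The AAV serotype and promoter were not stated in the labels used here. Each group is described as 3 rats, but no label names the animal of a library, so p-values measure the spread between these libraries.

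The choroid plexus is a sheet of secretory epithelium, folded around leaky blood vessels, that hangs into the brain ventricles and makes most of the cerebrospinal fluid. Its cells pump sodium, chloride and bicarbonate into the ventricle, water follows, and tight junctions keep blood and fluid apart. They also secrete carrier proteins and move vitamins such as folate out of the blood. In whole pieces of brain the tissue is a small and movable part of the sample. In bulk RNA, fewer cells of a type and less RNA per cell cannot be told apart.

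Total counts lay between 40296297 and 51669067 reads per library. Values are CPM, that is, counts scaled to library size and composition, and log2 fold changes come with their standard error (SE). The test was edgeR's quasi-likelihood test, its p-values were adjusted over all 12850 tested genes by the Benjamini-Hochberg method, and genes with an adjusted p under 0.05 are said to be called. Slc17a7, which loads glutamate into vesicles in cortical neurons, lay between 1249 and 2029 CPM, and Th, the dopamine-synthesis enzyme that defines midbrain dopamine neurons, between 0.652 and 1.70 CPM. Some libraries stood apart from their group. Sham 2 did so in the choroid plexus genes themselves, AAV-GFP 1 in Oxt, the hypothalamic oxytocin gene (47.8 CPM), and AAV-VEGFC 1 in ependymal genes, given below. AAV-VEGFC 3, the highest library for Kcne2, did so in the pituitary genes Gh1, of growth hormone (27.8 CPM), and Prl, of prolactin (25.7 CPM), and was kept in the fits that leave libraries out together. Sham 2 was set apart by the very genes described here. AAV-GFP 1 was also the lowest AAV-GFP library for Ttr, Kl, Clic6, Folr1 and Aqp1. Fits that leave out sham 2 or AAV-GFP 1 are therefore given as descriptions beside the fits of all 12 libraries.

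The upstream sequence of 3 of the 7 genes was in the RefSeq table used here (build GRCr8), and the 250 bases before the start are printed because these genes were all highest in the same library. OTX2 is the homeobox factor of this epithelium, and OTX proteins bind TAATCC. Capitals mark TAATC, the core of that motif, and TATAAA, the TATA box. The windows lie on the plus strand at chr18:12218508-12218757 for Ttr, chr12:5325753-5326002 for Kl and chr4:85812534-85812783 for Aqp1. The start that the table uses for Ttr lies inside the gene record and is not its first base.
Ttr: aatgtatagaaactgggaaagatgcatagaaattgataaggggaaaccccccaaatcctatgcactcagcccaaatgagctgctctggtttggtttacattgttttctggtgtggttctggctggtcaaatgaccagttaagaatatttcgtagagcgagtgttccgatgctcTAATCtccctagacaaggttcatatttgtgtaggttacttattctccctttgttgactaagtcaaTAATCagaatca
Kl: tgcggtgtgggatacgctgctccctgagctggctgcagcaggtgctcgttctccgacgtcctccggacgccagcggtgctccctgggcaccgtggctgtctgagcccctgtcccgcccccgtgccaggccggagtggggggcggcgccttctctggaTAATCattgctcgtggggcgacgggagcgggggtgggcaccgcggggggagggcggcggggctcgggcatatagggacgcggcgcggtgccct
Aqp1: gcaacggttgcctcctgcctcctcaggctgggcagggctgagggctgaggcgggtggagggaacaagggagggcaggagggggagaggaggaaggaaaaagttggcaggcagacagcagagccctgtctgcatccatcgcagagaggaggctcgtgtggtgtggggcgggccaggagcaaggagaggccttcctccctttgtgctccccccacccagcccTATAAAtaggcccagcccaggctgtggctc

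Both strands were searched. TAATCC itself was in none of the 3 windows, and 6.34% of the 33469 windows of the table hold it. TAATC, which every TAATCC contains, matched the Ttr window 2 times, at bases -77 and -12 from the start, and the Kl window 1 time, at base -93. It was not in the Aqp1 window, and 20.5% of all windows hold it. TATAAA was found in the Aqp1 window only, at base -30, and 12.9% of all windows hold it. Positions count from the start used here, and bases after it were not searched. The Ttr window therefore does not show whether a TATA box stands nearer another start of Ttr. A match describes the letters and is not a binding site.

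Ttr codes for transthyretin, the carrier of thyroxine and of retinol-binding protein that the choroid plexus secretes into the fluid. Its level was 14.8, 7.34 and 19.2 CPM in AAV-VEGFC libraries 1 to 3, and 3.98, 57.8 and 41.4 CPM in AAV-GFP libraries 1 to 3. It was 21.98, 3.72 and 4.54 CPM in BDL libraries 1 to 3, and 1.31, 245 and 1.03 CPM in sham libraries 1 to 3. Sham 2 was far above every other library, while the other 2 sham libraries were the lowest of the 12. All ligated groups overlapped with sham and with each other. In reads, sham 2 held 12034 for Ttr, against 67 in sham 1 and 43 in sham 3. Its CPM was 210 times the mean of these 2. AAV-GFP 1 ran the other way within its group, at 0.0804 times the mean of AAV-GFP 2 and 3, and BDL 1 stood at 5.32 times the mean of BDL 2 and 3.

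**Figure D1:**
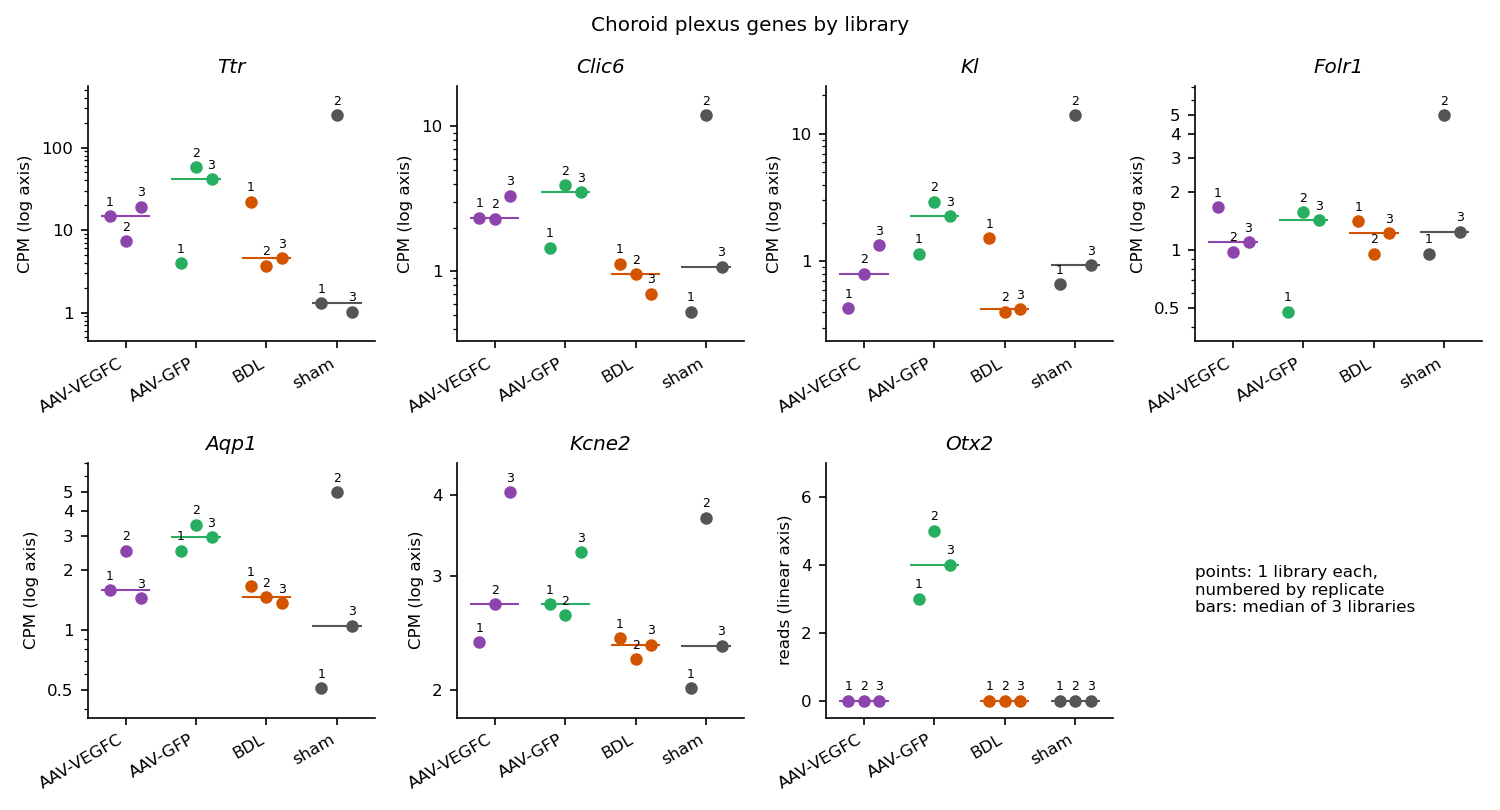
Level of each tested choroid plexus gene in CPM (log axis), and reads of Otx2 (linear axis), with a numbered point for each of the 12 libraries by group and a bar at the group median. Sham 2 is the highest library for Ttr (245 CPM), Kl (13.9 CPM), Clic6 (11.9 CPM), Folr1 (4.97 CPM) and Aqp1 (4.99 CPM), while Kcne2 is highest in AAV-VEGFC 3 (4.04 CPM).

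Kl codes for klotho, a membrane protein and co-receptor for the hormone FGF23 whose outer part is shed into the cerebrospinal fluid. It stood at 0.429, 0.798 and 1.34 CPM in AAV-VEGFC libraries and at 1.15, 2.94 and 2.25 CPM in AAV-GFP libraries. In BDL libraries it stood at 1.52, 0.404 and 0.422 CPM, and in sham libraries at 0.665, 13.9 and 0.932 CPM. The order within groups followed that of Ttr in the AAV-GFP and BDL groups. Sham 2 was again the highest library, at 17.4 times the mean of sham 1 and 3, and BDL 1 stood at 3.67 times the mean of BDL 2 and 3. Kl differed from Ttr in AAV-VEGFC 1, where only BDL 2 and BDL 3 had less Kl.

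Folr1 codes for folate receptor alpha, which carries folate across this epithelium into the fluid. Its level was 1.66, 0.978 and 1.10 CPM in AAV-VEGFC libraries, and 0.480, 1.57 and 1.42 CPM in AAV-GFP libraries. It was 1.41, 0.956 and 1.23 CPM in BDL libraries, and 0.958, 4.97 and 1.24 CPM in sham libraries. Outside sham 2 the gene varied 3.47-fold between its lowest and highest library, against 56.2-fold for Ttr. The lowest was AAV-GFP 1.

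Clic6, Aqp1 and Kcne2 act in the transport of ions and water. Clic6 belongs to the family of chloride intracellular channels. It had 2.35, 2.31 and 3.32 CPM in AAV-VEGFC libraries, and 1.46, 3.92 and 3.52 CPM in AAV-GFP libraries. It had 1.13, 0.956 and 0.703 CPM in BDL libraries, and 0.528, 11.9 and 1.08 CPM in sham libraries. Every AAV-VEGFC and AAV-GFP library lay above every BDL library, and sham 2 lay above all of them.

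Aqp1 codes for aquaporin 1, the water channel of the membrane that faces the ventricle. Its level was 1.59, 2.51 and 1.45 CPM in AAV-VEGFC libraries, and 2.52, 3.41 and 2.95 CPM in AAV-GFP libraries. It was 1.67, 1.47 and 1.37 CPM in BDL libraries, and 0.508, 4.99 and 1.05 CPM in sham libraries. All AAV-GFP libraries were above all BDL and all AAV-VEGFC libraries, the last by a narrow margin. Apart from sham 2, the sham libraries were the lowest of the 12.

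Kcne2 codes for an accessory subunit of potassium channels on the same membrane. It had 2.37, 2.71 and 4.04 CPM in AAV-VEGFC libraries, and 2.71, 2.61 and 3.26 CPM in AAV-GFP libraries. It had 2.41, 2.23 and 2.35 CPM in BDL libraries, and 2.01, 3.69 and 2.34 CPM in sham libraries. Its highest library was 2.01 times its lowest, the narrowest range of the 6 tested members, and sham 2 ranked second. In GRCr8, Kcne2 and Clic6 lie on chromosome 11 with 5 protein-coding genes between them, yet sham 2 stood at 1.69 times the mean of sham 1 and 3 for Kcne2 and at 14.9 times for Clic6.

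Otx2, the homeobox gene needed to form and maintain the choroid plexus in mice, had 12 reads in all. They fell as 3, 5 and 4 reads in AAV-GFP libraries 1 to 3, and AAV-VEGFC, BDL and sham libraries all had 0 reads. With 3 counts over the group as the limit that a count of 0 allows, the summed level in AAV-GFP was 3.77 times that limit in AAV-VEGFC. It was 3.98 times the limit in BDL. These ratios leave out the error of the 12 reads and the spread between libraries, so they are not lower bounds. An exact two-sided permutation test gave p = 0.1 for either pair, the smallest p that 3 against 3 libraries can give. The gene did not pass the filter on low counts. In an edgeR fit with no filter, over 14527 genes, its adjusted p was 0.941 for AAV-VEGFC against AAV-GFP and 0.232 for AAV-GFP against BDL. The Otx2 reads did not go with Ttr. Sham 2, with 12034 Ttr reads, had 0 Otx2 reads, which allows up to 0.0612 CPM, and AAV-GFP 1, with 191 Ttr reads, had 3.

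The members thus varied unequally between libraries of 1 group. The SD of log2 CPM around the group means was 2.57 for Ttr, rank 13 of the 12850 tested genes, 1.39 for Kl and 1.23 for Clic6. It was 0.853 for Aqp1, 0.808 for Folr1 and 0.312 for Kcne2, against a median of 0.181 over all tested genes. Without sham 2 these SDs were 1.40 for Ttr, 0.789 for Kl, 0.539 for Clic6, 0.372 for Aqp1, 0.554 for Folr1 and 0.239 for Kcne2. Ttr then stood at the 98.8th percentile of tested genes and Kcne2 at the 62.2nd.

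Relative to Ttr, the members kept no single proportion. Kl had 5.09 reads per 100 Ttr reads in AAV-GFP 2, 5.45 in AAV-GFP 3 and 5.68 in sham 2, the 3 libraries with the most Ttr. The next 3 libraries by Ttr had 6.90 (BDL 1), 6.99 (AAV-VEGFC 3) and 2.90 (AAV-VEGFC 1), the last the lowest of the 12. Kl had 50.8 in sham 1 and 90.7 in sham 3, where Ttr was lowest. For Kcne2 the same ratio was 1.50 in sham 2, 4.52 in AAV-GFP 2, 154 in sham 1 and 228 in sham 3. Reads per 100 Ttr reads depend on the lengths of both genes, so they compare libraries and not genes.

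**Figure D2:**
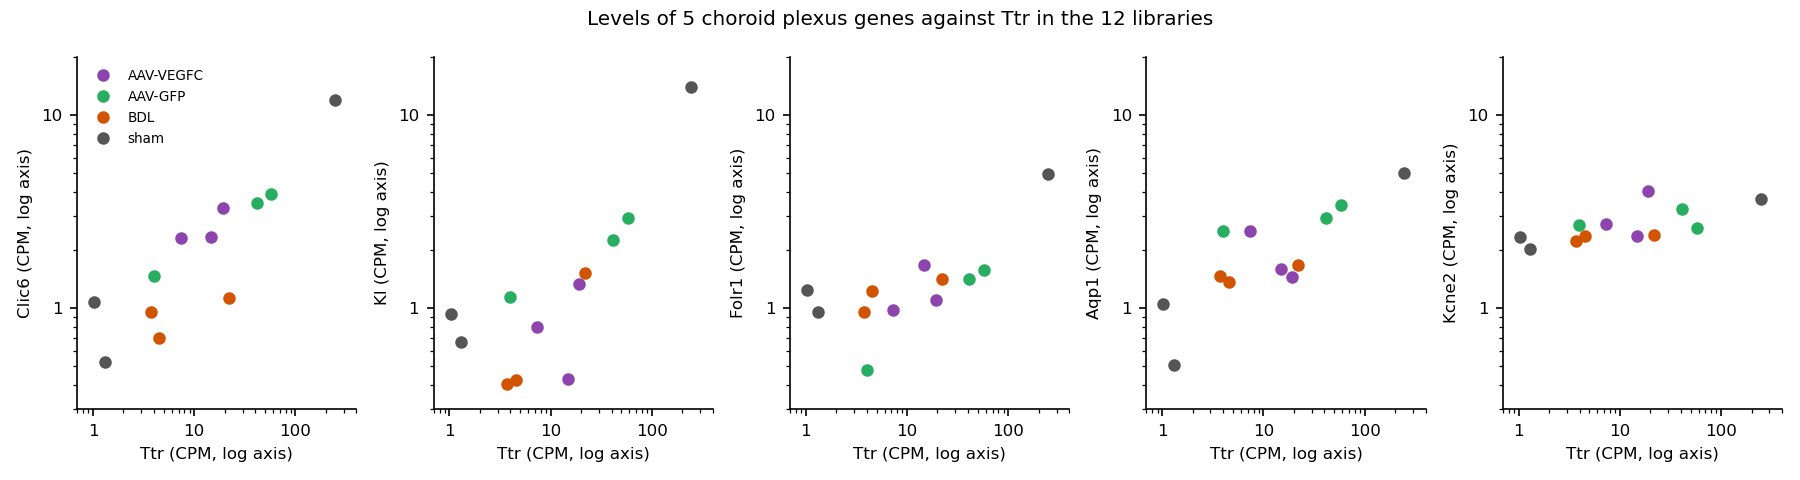
Level of Clic6, Kl, Folr1, Aqp1 and Kcne2 (vertical, CPM, log axis) against that of Ttr (horizontal, CPM, log axis), with a point per library coloured by group. Sham 2 lies at the upper right for Clic6, Kl, Folr1 and Aqp1, while Kcne2 stays between 2.01 and 4.04 CPM over the whole range of Ttr.

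None of the 6 tested members was called in BDL against sham, where edgeR called 0.109% of all tested genes. At an unadjusted p under 0.05, 2 of 6 members (Kl and Clic6) and 758 of all genes passed. DESeq2 and limma voom called 108 and 347 of all genes and no member. All 6 fold changes were negative, with a median of -1.64 against 0.00825 over all tested genes. Ttr averaged 10.1 ± 10.3 CPM in BDL and 82.5 ± 141 CPM in sham libraries (SD, n = 3 each), with a log2 fold change of -3.04 ± 1.66 and an adjusted p of 0.934. Kl had -2.73 ± 1.05 (adjusted p = 0.765) and Clic6 -2.28 ± 0.91 (adjusted p = 0.792). The groups overlapped for all 6, whereas 25.0% of all tested genes did not overlap.

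These negative values rested on sham 2. Without it the log2 fold change of Ttr was 3.10 ± 1.17 (adjusted p = 0.929), that of Aqp1 0.95 ± 0.36 (adjusted p = 0.932) and that of Kl -0.03. Ttr, Clic6, Folr1, Aqp1 and Kcne2 turned positive, and none of the 6 was called, against 13 of all 12956 genes. Measured against sham 1 and 3, Ttr was higher in every BDL library, and measured against sham 2 it was lower in every one.

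**Figure D3:**
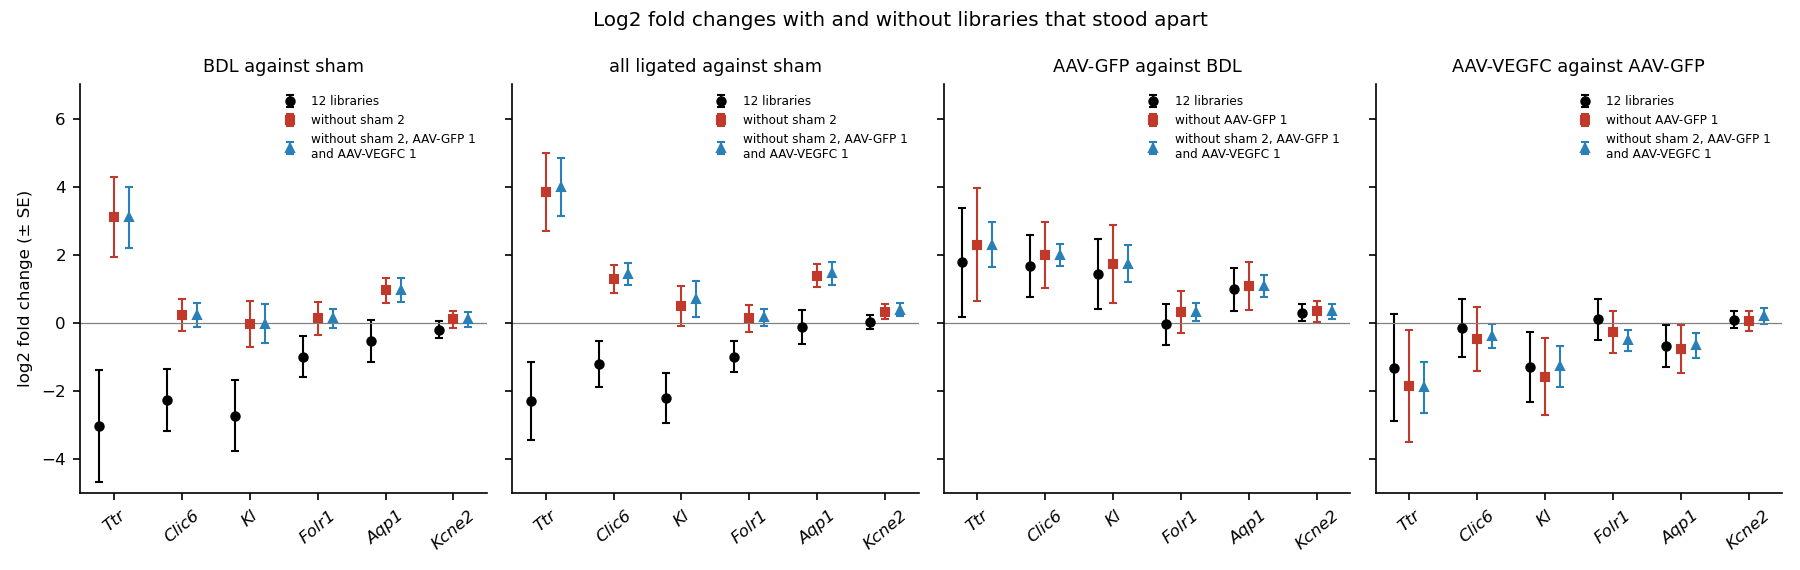
Log2 fold change with its SE for the 6 tested members in 4 comparisons, from all 12 libraries (circles), without sham 2 or without AAV-GFP 1 (squares) and without sham 2, AAV-GFP 1 and AAV-VEGFC 1 (triangles). In both comparisons with sham the value of Ttr is negative in the fit of 12 libraries (-3.04 and -2.30) and positive without sham 2 (3.10 and 3.84).

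With the 9 ligated libraries together against sham, 0 of 6 members were called by edgeR, against 10.02% of all tested genes. At an unadjusted p under 0.05, 1 member (Kl) and 3543 of all genes passed. Kl came closest, with -2.20 ± 0.74 (adjusted p = 0.0839), and DESeq2 called it (adjusted p = 0.0251) among 17.1% of all genes. Limma voom called 4506 of all 12850 genes and none of the members. Ttr had -2.30 ± 1.14 (adjusted p = 0.216), Folr1 -0.997 ± 0.463 (adjusted p = 0.189), Aqp1 -0.12 ± 0.50 and Kcne2 0.02 ± 0.21. The ligated and sham libraries overlapped for all 6 members, and 9.67% of all tested genes did not overlap.

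Without sham 2 the directions turned here as well. Aqp1 had a log2 fold change of 1.38 ± 0.33 (adjusted p = 0.0410), the 1 member then called, against 5.23% of all genes. Ttr had 3.84 ± 1.14 (adjusted p = 0.0856), Clic6 1.28 ± 0.42 (adjusted p = 0.120) and Kl 0.49 ± 0.59. With AAV-GFP 1 and AAV-VEGFC 1 left out as well, Ttr (3.99 ± 0.87, adjusted p = 0.0106), Clic6 (1.42 ± 0.33, adjusted p = 0.0130) and Aqp1 (1.45 ± 0.33, adjusted p = 0.0134) were called, against 26.3% of all genes. These fits keep only sham 1 and sham 3 as controls, and the direction of each of these genes depends on which sham libraries are kept.

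The comparison of AAV-GFP with BDL libraries asks what injection of a control vector adds to ligation. Of the 6 members, 0 were called by edgeR, against 6.19% of all tested genes. At an unadjusted p under 0.05 there were 0 members and 2665 of all genes. DESeq2 and limma voom called 1485 and 4687 of all 12850 genes and no member. Clic6 averaged 2.97 ± 1.32 CPM in AAV-GFP and 0.929 ± 0.213 CPM in BDL libraries (SD, n = 3 each), with a log2 fold change of 1.67 ± 0.91 (adjusted p = 0.332). Aqp1 averaged 2.96 ± 0.441 CPM in AAV-GFP and 1.50 ± 0.154 CPM in BDL libraries, with 0.98 ± 0.62 (adjusted p = 0.415). The log2 fold change of Ttr was 1.77 ± 1.59, that of Kl 1.44 ± 1.03, that of Kcne2 0.30 ± 0.26 and that of Folr1 -0.05 ± 0.61.

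In 3 members, Clic6, Aqp1 and Kcne2, every AAV-GFP library was above every BDL library. This was so for 18.2% of all tested genes. Fitted on these 2 groups alone, without the AAV-VEGFC and sham libraries and over 12604 genes, Aqp1 (adjusted p = 0.0217) and Clic6 (adjusted p = 0.0376) were called, against 16.1% of all genes. Without sham 2, AAV-GFP 1 and AAV-VEGFC 1, the called members were Ttr (2.30 ± 0.67, adjusted p = 0.0322), Kl (1.73 ± 0.54, adjusted p = 0.0420), Clic6 (1.99 ± 0.32, adjusted p = 0.00279) and Aqp1 (1.08 ± 0.33, adjusted p = 0.0375). The share of all genes called was then 28.3%. Leaving out AAV-GFP 1 takes away the lowest AAV-GFP value of each of these genes, so these calls are a description and not support. Without AAV-GFP 1 alone, 0 members were called, against 859 of all 12943 genes. Rn18s, the 18S ribosomal RNA gene, moved with the same groups, at 4245 to 11510 CPM in AAV-GFP libraries and 1786 to 2989 CPM in BDL libraries. Its part in the result was not tested.

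AAV-VEGFC against AAV-GFP asks what the growth factor adds to the vector. None of the 6 members was called, against 0.00778% of all tested genes, and at an unadjusted p under 0.05 there were 0 members and 561 of all genes. DESeq2 and limma voom called no member either, with 10 and 1 of all genes called. Ttr averaged 13.8 ± 5.98 CPM in AAV-VEGFC and 34.4 ± 27.6 CPM in AAV-GFP libraries (SD, n = 3 each), with a log2 fold change of -1.32 ± 1.57 (adjusted p = 0.956). Kl had -1.30 ± 1.03 (adjusted p = 0.948), Clic6 -0.16 ± 0.86, Folr1 0.10 ± 0.61 and Kcne2 0.09 ± 0.26. Aqp1 had -0.67 ± 0.62 (adjusted p = 0.948), and its AAV-VEGFC libraries all lay below its AAV-GFP libraries, as for 2.77% of all tested genes. This comparison shares the AAV-GFP libraries with the one before, so a high AAV-GFP value gives opposite signs in the 2. In a test over all 4 groups together edgeR called 0 of 6 members, against 13.7% of all tested genes, with the smallest adjusted p for Kl (0.175), the 1 member that DESeq2 called (adjusted p = 0.0319, 26.3% of all genes). Without sham 2 edgeR called Clic6 (adjusted p = 0.0330) and Aqp1 (adjusted p = 0.0336), against 8.74% of all genes. Without AAV-GFP 1 and AAV-VEGFC 1 as well it called Ttr, Clic6 and Aqp1, against 40.9% of all genes.

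A list of 30 other genes expressed by choroid plexus epithelium, of which 27 were found and 26 tested, showed which of them went with the members. Of the 26, 13 were highest in sham 2, against 3.84% of all tested genes. In sham 2, 8 stood at 5 or more times the median of the other 11 libraries. Cldn2, a tight-junction claudin, had 6.79 CPM in sham 2 and a median of 0.342 CPM in the others. Slc4a5, a sodium bicarbonate cotransporter of the ventricular membrane, had 7.99 CPM in sham 2 and a median of 0.478 CPM elsewhere. Kcnj13, a potassium channel, had 5.52 CPM in sham 2 and 0.321 CPM as median elsewhere, and F5, coagulation factor V, 12.8 CPM in sham 2 and 1.12 CPM elsewhere. Mfrp, Sostdc1, Tmem72 and Prlr, the prolactin receptor, were the others.

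In 12 of the 26 the fold over that median was under 2. Enpp2, the lysophospholipase autotaxin, was still highest in sham 2, with 292 CPM against a median of 186 CPM and at most 234 CPM elsewhere. Htr2c, a serotonin receptor that neurons express too, had 95.3 CPM in sham 2 and 70.01 CPM elsewhere. No gene of this list was called in any comparison, against 0.00778% to 13.7% of all tested genes over the comparisons. The smallest p was that of Slc22a8, an organic anion transporter, which averaged 14.9 ± 1.87 CPM in AAV-VEGFC, 14.5 ± 0.923 CPM in AAV-GFP, 10.8 ± 3.99 CPM in BDL and 8.62 ± 2.03 CPM in sham libraries. Its log2 fold change for all ligated libraries against sham was 0.62 ± 0.20 (adjusted p = 0.0699). Slc22a8 did not go with the members in sham 2, which had 10.9 CPM. That was 0.81 times the median of the other libraries, the lowest such value of the 26. How much of the reads of the 12 genes under 2-fold came from cells outside the choroid plexus was not tested.

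**Figure D4:**
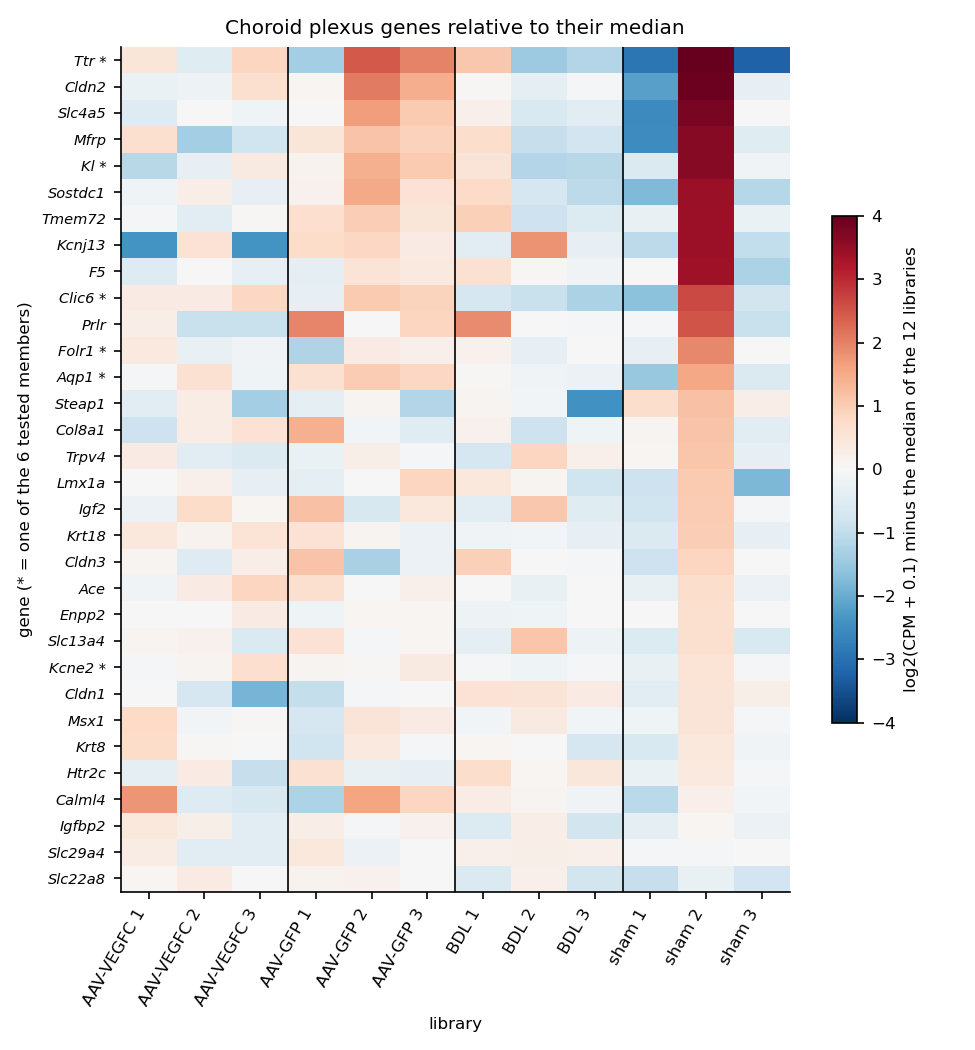
Heat map of the 6 tested members (asterisks) and 26 other choroid plexus genes by library, as log2(CPM + 0.1) minus the gene's median over the 12 libraries, ordered by the value in sham 2. The column of sham 2 is darkest red in the top rows, lighter red at Prlr and Folr1, and pale in the lower rows, where Kcne2, Enpp2 and Slc22a8 stand.

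The genes most like each member were found among 12421 tested genes with a known symbol, by the root mean square difference of their centred log2 CPM over the 12 libraries. Nearest to Ttr were Sostdc1 (1.05), Cldn2 (1.09), Slc4a5 (1.26), Mfrp (1.26) and Clic6 (1.29), followed by Ces1d, Slco1a5, Gabrr1, Kl and Tmem72. Of these 10, 2 are members and 5 belong to the list of other choroid plexus genes. Ces1d, Slco1a5 and Gabrr1 had medians of 0.173, 0 and 0.154 CPM outside sham 2, so their profiles rest on few reads. Nearest to Kl were Tmem72 (0.484), Sostdc1 (0.734) and Clic6 (0.785), and nearest to Clic6 were Aqp1 (0.672), Sostdc1 (0.717) and Itgb6 (0.747). Folr1 was nearest to Tekt3, Igfbpl1 and Gas2l2, Aqp1 to Pon3, Jsrp1 and Cd70, and Kcne2 to Sgk2, Enpp2 and Ace. Without sham 2, 5 of the 10 genes nearest to Ttr were shared (Gabrr1, Sostdc1, Cldn2, Ces1d and Clic6), and the erythroid genes Alas2 and Hbb-b1 came among the 10. Without sham 2, Kl kept 1 of its 3 (Tmem72), Folr1 1 of 3 (Gas2l2), Aqp1 1 of 3 (Jsrp1), and Clic6 and Kcne2 0 of 3 each.

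Of 22 other genes for secretion of cerebrospinal fluid, 1 was called in all ligated libraries against sham, where 10.02% of all tested genes were. In the 3 pairwise comparisons 0 were called, against 0.00778% to 6.19% of all tested genes. The called gene was Slc5a3, the sodium and myo-inositol cotransporter, which averaged 6.67 ± 2.58 CPM in AAV-VEGFC, 7.25 ± 0.453 CPM in AAV-GFP, 8.90 ± 0.801 CPM in BDL and 13.9 ± 1.52 CPM in sham libraries. It fell by 0.88 ± 0.17 on the log2 scale (adjusted p = 0.00808). The median of the list was -0.0767 against 0.00708 over all tested genes.

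Of 17 tested genes of thyroid hormone and retinol handling, which transthyretin serves, 1 rose and 1 fell in all ligated libraries against sham, a share near the 10.02% of all tested genes called there. Stra6, the membrane receptor of retinol-binding protein, rose by 0.62 ± 0.14 (adjusted p = 0.0196), and Dio2, the deiodinase that activates thyroxine, had -0.53 ± 0.14 (adjusted p = 0.0324). Dio2 averaged 19.5 ± 4.76 CPM in AAV-VEGFC, 17.1 ± 2.16 CPM in AAV-GFP, 15.8 ± 1.29 CPM in BDL and 25.1 ± 3.95 CPM in sham libraries. Of 16 tested folate genes 0 were called in any comparison, against 0.00778% to 13.7% of all tested genes over the comparisons. The smallest p was that of Fpgs, which adds glutamates to folate, in AAV-GFP against BDL (-0.60 ± 0.17, adjusted p = 0.0647).

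Of 11 tested genes of klotho and FGF receptor signalling, 1 fell in all ligated libraries against sham, Slc20a1, a phosphate transporter (-0.38 ± 0.11, adjusted p = 0.0443), again near the share of 10.02% over all tested genes. Igf1r, the receptor of insulin-like growth factor 1, was the 1 gene of this list that differed over the 4 groups (adjusted p = 0.0438), where 13.7% of all tested genes did. It averaged 23.0 ± 3.61 CPM in AAV-VEGFC, 24.7 ± 0.863 CPM in AAV-GFP, 29.5 ± 2.42 CPM in BDL and 31.4 ± 1.44 CPM in sham libraries.

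Sums of markers of other tissues were highest in libraries other than sham 2. The 15 ependymal and ciliary genes found, of 20 listed, summed to 105 CPM in AAV-VEGFC 1 and to between 52.2 and 66.9 CPM in the other libraries, with 66.9 CPM in sham 2. Of the 13 tested, 11 were highest in AAV-VEGFC 1, which was the highest library for 27.2% of all tested genes. In no comparison was any of the 13 called, against 0.00778% to 13.7% of all tested genes over the comparisons. The smallest p was that of Tmem212 in AAV-VEGFC against AAV-GFP (0.92 ± 0.34, adjusted p = 0.948). The 20 meningeal and fibroblast genes summed to between 90.9 and 156 CPM in AAV-VEGFC, 116 and 202 CPM in AAV-GFP, 82.5 and 190 CPM in BDL, and 70.1 and 123 CPM in sham libraries, the last value in sham 2. Of the 20, 1 was called in all ligated libraries against sham, against 10.02% of all tested genes, Mgp, the matrix Gla protein gene (1.19 ± 0.34, adjusted p = 0.0486). The 16 hypothalamic and pituitary genes summed to 91.1 CPM in AAV-GFP 1, 60.9 CPM in AAV-VEGFC 3 and between 4.26 and 19.5 CPM elsewhere. Of the 10 tested, 1, Pomc, differed over the 4 groups (adjusted p = 0.0144), against 13.7% of all tested genes. Of 9 tested genes of thalamus and dorsal midbrain 0 were called in any comparison, against 0.00778% to 13.7% of all tested genes over the comparisons. The smallest p was that of Lef1 in all ligated libraries against sham (0.40 ± 0.17, adjusted p = 0.157).

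**Figure D5:**
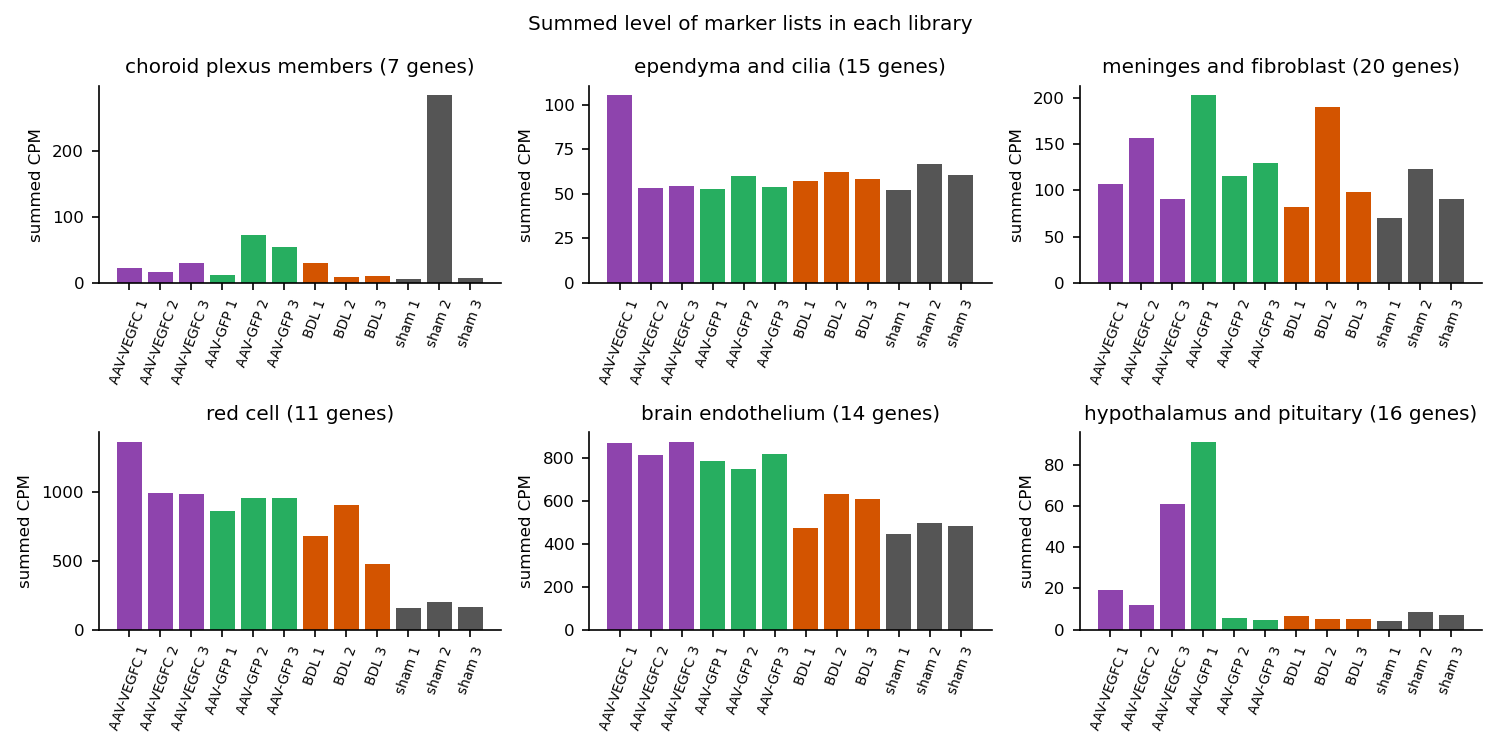
Summed CPM of 6 marker lists in each of the 12 libraries, coloured by group, each panel with its own vertical axis from 0. The members sum to 285 CPM in sham 2 and to at most 72.4 CPM in any other library, while the ependymal sum is highest in AAV-VEGFC 1 (105 CPM) and the red-cell sum is higher in every ligated library than in any sham library.

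Red-cell sums were higher in every ligated library than in any sham library. Endothelial sums were higher in every AAV-VEGFC and AAV-GFP library than in any BDL or sham library. The 11 red-cell genes found summed to between 986 and 1368 CPM in AAV-VEGFC, 863 and 963 CPM in AAV-GFP, 477 and 908 CPM in BDL, and 155 and 201 CPM in sham libraries. Of 10 tested, 5 rose in BDL against sham, where 0.0934% of all tested genes were called higher. In all ligated libraries against sham 5 rose, where 3.02% of all tested genes were called higher, among them Slc4a1, the red-cell anion exchanger (4.86 ± 0.33, adjusted p = 2.98e-05). The 14 endothelial genes found summed to between 814 and 876 CPM in AAV-VEGFC, 748 and 822 CPM in AAV-GFP, 475 and 632 CPM in BDL, and 448 and 498 CPM in sham libraries. Of 13 tested, 5 rose in AAV-GFP against BDL, led by Cldn5, the claudin of brain endothelium (0.91 ± 0.13, adjusted p = 0.00210), where 0.988% of all tested genes were called higher. In all ligated libraries against sham 9 rose, against 3.02% of all tested genes called higher. Sham 2 held 201 CPM of the red-cell sum and 498 CPM of the endothelial sum, the highest of the sham libraries in both. The part of blood and vessel RNA in the values of the members was not tested.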

How the data were processed

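The 12 files deposited by the authors hold whole-number counts of reads per gene without normalization. One holds all 12 libraries, and the 11 others equal their column in it. Per the labels' protocols, total RNA from Trizol extraction went into a TruSeq library kit. Per the submitters' processing notes, FastQC, Trimmomatic 0.36, HISAT2, featureCounts and the rn6 build were used. Their settings, the annotation and the strandedness were not stated in the labels, so overlapping or antisense genes may share reads. In the table, 4 rows carry a repeated name and 26 are named as dates.

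Here the counts were scaled by TMM and filtered with filterByExpr, and a quasi-likelihood model with group means was fitted to the 12 libraries at once (edgeR 4.0.16, R 4.3.3). SE came from the fold change and the F statistic. CPM used TMM factors, and log2 CPM a prior count of 2. Between libraries of 1 group, chi-square per degree of freedom was 11.9 to 233, so within groups no pair agreed within sampling noise. Limits for a count of 0 use 3 counts and cover counting error only. The tests were first tested on simulated data. Promoter windows came from RefSeq (GRCr8), and coordinates in them do not apply to the counts' build. Figures were drawn with matplotlib 3.10.9.

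The members and all gene lists were chosen with earlier results of these data known. Named were the 7 members, from each list the called genes (up to 3 per comparison, smallest p first) or else the 1 with the smallest p, the 10 genes nearest to Ttr and the 3 nearest to each other member. The text gives part of the red-cell and endothelial genes so named. The genes that describe sham 2 within the other choroid plexus list, and Slc17a7, Th, Oxt, Gh1, Prl, Rn18s, Kdr and Eng, were named after their values were seen. Alternatives were DESeq2 1.42.0 (its test, and its size factors in edgeR), limma 3.58.1 voom with quality weights, no filter, a fit of only the 2 groups compared, a filter at 1 CPM in 3 libraries, a replicate block, leaving out each library, and leaving out sham 2, AAV-GFP 1 and AAV-VEGFC 1 together. For the spread, a prior count of 0.5 was tried.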

Additional observations from a re-analysis of the deposited data

How the results depend on the processing

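For BDL against sham and AAV-VEGFC against AAV-GFP, 0 of 6 members were called under every alternative run. For AAV-GFP against BDL the count was 2 in the fit of the compared groups alone and 4 without sham 2, AAV-GFP 1 and AAV-VEGFC 1 (the 3 libraries). For all ligated libraries against sham it was 1 by DESeq2, 3 without the 3 libraries and 0 to 1 with each library left out, the 1 without sham 2. Over the 4 groups it was 1 by DESeq2 (Kl), 3 without the 3 libraries (Ttr, Clic6, Aqp1) and 0 to 2 with each library left out, the 2 (Clic6 and Aqp1) without sham 2. Other settings gave 0. Over all genes, the called numbered 14 for BDL against sham (12 to 347 over the alternatives), 795 for AAV-GFP against BDL (386 to 4687), 1 for AAV-VEGFC against AAV-GFP (0 to 1193), 1287 for all ligated against sham (378 to 4506) and 1766 over the 4 groups (937 to 6627).

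Directions turned as follows, as log2 fold changes. For BDL against sham, limma voom gave Ttr 0.34 and Aqp1 0.22, and leaving out the 3 libraries gave Ttr 3.09, Clic6 0.22, Folr1 0.12, Aqp1 0.96 and Kcne2 0.10. With each library left out, the range was -4.32 to 3.10 for Ttr, -2.81 to 0.22 for Clic6, -1.38 to 0.12 for Folr1, -1.02 to 0.95 for Aqp1 and -0.38 to 0.10 for Kcne2, each highest without sham 2. For AAV-GFP against BDL, Folr1 had 0.21 by limma voom, 0.32 without the 3 libraries and -0.33 to 0.32 with each library left out, positive without AAV-GFP 1 and without BDL 1. For AAV-VEGFC against AAV-GFP, Folr1 had -0.38 by limma voom, -0.52 without the 3 libraries and -0.27 to 0.38 with each left out, negative without AAV-VEGFC 1 or AAV-GFP 1. In that comparison Clic6 ranged over -0.48 to 0.094, positive without AAV-GFP 2, and Kcne2 over -0.17 to 0.24, negative without AAV-VEGFC 3.

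For all ligated libraries against sham, limma voom gave Ttr 1.40, Clic6 0.28 and Aqp1 0.68, and leaving out the 3 libraries gave Ttr 3.99, Kl 0.70, Clic6 1.42, Folr1 0.16 and Aqp1 1.45. With each left out, the range was -2.88 to 3.84 for Ttr, -2.73 to 0.49 for Kl, -1.75 to 1.28 for Clic6, -1.38 to 0.13 for Folr1 and -0.59 to 1.38 for Aqp1, positive without sham 2 only. Kcne2 ranged over -0.15 to 0.33, negative without AAV-VEGFC 3, AAV-GFP 3, sham 1 or sham 3.

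The SD between libraries without the 3 libraries was 1.003 for Ttr, 0.713 for Kl, 0.408 for Clic6, 0.218 for Folr1 and 0.413 for Aqp1. With each library left out it ranged over 1.40 to 2.75 for Ttr, 0.789 to 1.48 for Kl, 0.539 to 1.32 for Clic6 and 0.372 to 0.912 for Aqp1, each lowest without sham 2. A prior count of 0.5 gave SDs within 1.5 times.

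Replicate numbers in the titles are not said to pair the samples. Deviations of same-numbered libraries correlated at -0.0448 to 0.068 in the pairs of groups checked. Different-numbered libraries were not compared, so these values do not decide whether samples are paired. With the replicate block 0 members were called in any comparison, where 0 to 1163 of all genes were. The block turned Clic6 to 0.027 in AAV-VEGFC against AAV-GFP and Aqp1 to 0.23 in all ligated libraries against sham. The causes were not tested, apart from the libraries whose omission is named. Outside sham 2, Kl, Clic6, Folr1 and Aqp1 stayed under 4 CPM, and Otx2 was too low to test.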
